A study of Sus scrofa with 8 samples.

Results

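Hepatic expression of 9 inflammasome and pyroptosis genes (NLRP1, NLRP3, NLRC4, NLRC5, PYCARD, CASP1, CASP4, GSDMD and P2RX7) was examined in pigs before and after development of steatosis. The genes were chosen by name for their role, with earlier results of these data known. Of the 9 symbols, 7 had a row among the 18103 genes of the table, and 6 of these were expressed strongly enough to enter the fit over 13175 genes. PYCARD and CASP4 had no row under these symbols. The RNAseq data comprised 8 libraries of male Landrace x Large White pigs, each made from the liver RNA of 2 pigs. The initial state (4 pools) was the liver at 4 months of age, labelled healthy and sampled by biopsy. Steatosis (4 pools) was the liver of the same animals at 6 months of age, sampled after euthanasia once they had eaten a steatotic diet for 2 months. This diet was rich in saturated fat, cholesterol, fructose and cholate and poor in methionine and choline. No pools of animals kept on a control diet to 6 months of age were analysed here, so diet, age and way of sampling cannot be told apart. Transcript levels are given as FPKM (fragments mapped to a gene, scaled by the length of its transcripts and by the total of the library), which correct for transcript length and so can be set side by side between genes.

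Inflammasomes are protein complexes of the cytosol that assemble when a sensor such as NLRP1, NLRP3 or NLRC4 meets microbial molecules or signs of cell damage. The adaptor ASC, encoded by PYCARD, links the sensor to caspase-1 (CASP1), which matures interleukin 1 beta and interleukin 18 and cuts gasdermin D (GSDMD). The freed part of gasdermin D forms pores in the cell membrane, and the lytic death that follows is called pyroptosis. Caspase-4 reaches the same pore through a path started by intracellular lipopolysaccharide, and P2RX7, a channel opened by extracellular ATP, lets potassium leave the cell, a trigger of NLRP3. NLRC5 belongs to the same family of proteins but is best known as an activator of MHC class I genes. In the liver NLRP3 and caspase-1 are best known from Kupffer cells, the resident macrophages. Activation of the complex is a matter of protein assembly and cleavage, which RNA levels do not measure.

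Mean FPKM was higher in steatosis for 7 of 7 genes with a row, against 78.7% of all genes tested. FPKM was higher in 27 of 28 comparisons with the initial pool of the same number (the exception was NLRC4 in pool 4), as the plot of FPKM by pool shows. The share of such comparisons over all genes is not given here, so this count cannot be set against it. The deposited pairwise comparisons also match libraries of the same number. That pools of the same number hold the same animals is inferred from the data and is not stated in the sources. A call required a limma adjusted p below 0.01 together with a log2 fold change above 1 or below -1. By these limits limma called 0 of the 6 genes tested, while 6.01% of all genes tested were called higher and 0.334% lower. At an unadjusted p under 0.05, limma found 5 of the 6 genes higher, against 37.8% of all genes. An adjusted p under 0.05 was reached by 4 of 6 genes (CASP1, GSDMD, NLRP3 and P2RX7), against 26.7% of all genes, and an adjusted p under 0.01 by 2 of 6 (CASP1 and GSDMD), against 12.9%. The steatosis pools lay wholly above the initial pools in 5 of the 7 genes with a row, which is the case for 29.6% of the genes tested, while 2.53% of those lay wholly below. The median log2 fold change of the 6 genes was 0.83, with a range of 0.68 to 0.98, beside 0.25 for all genes tested. Because the whole table leaned upward in steatosis (78.7% of genes had a higher mean), the fit was repeated with each library scaled by its median ratio to the average library. This moved the median of all genes to -0.01 and that of the 6 genes to 0.57, with 2 of 6 at an adjusted p under 0.05, against 11.7% of all genes. All 6 differences stayed positive under this scaling, as the plot of log2 fold changes shows.

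**Figure D1:**
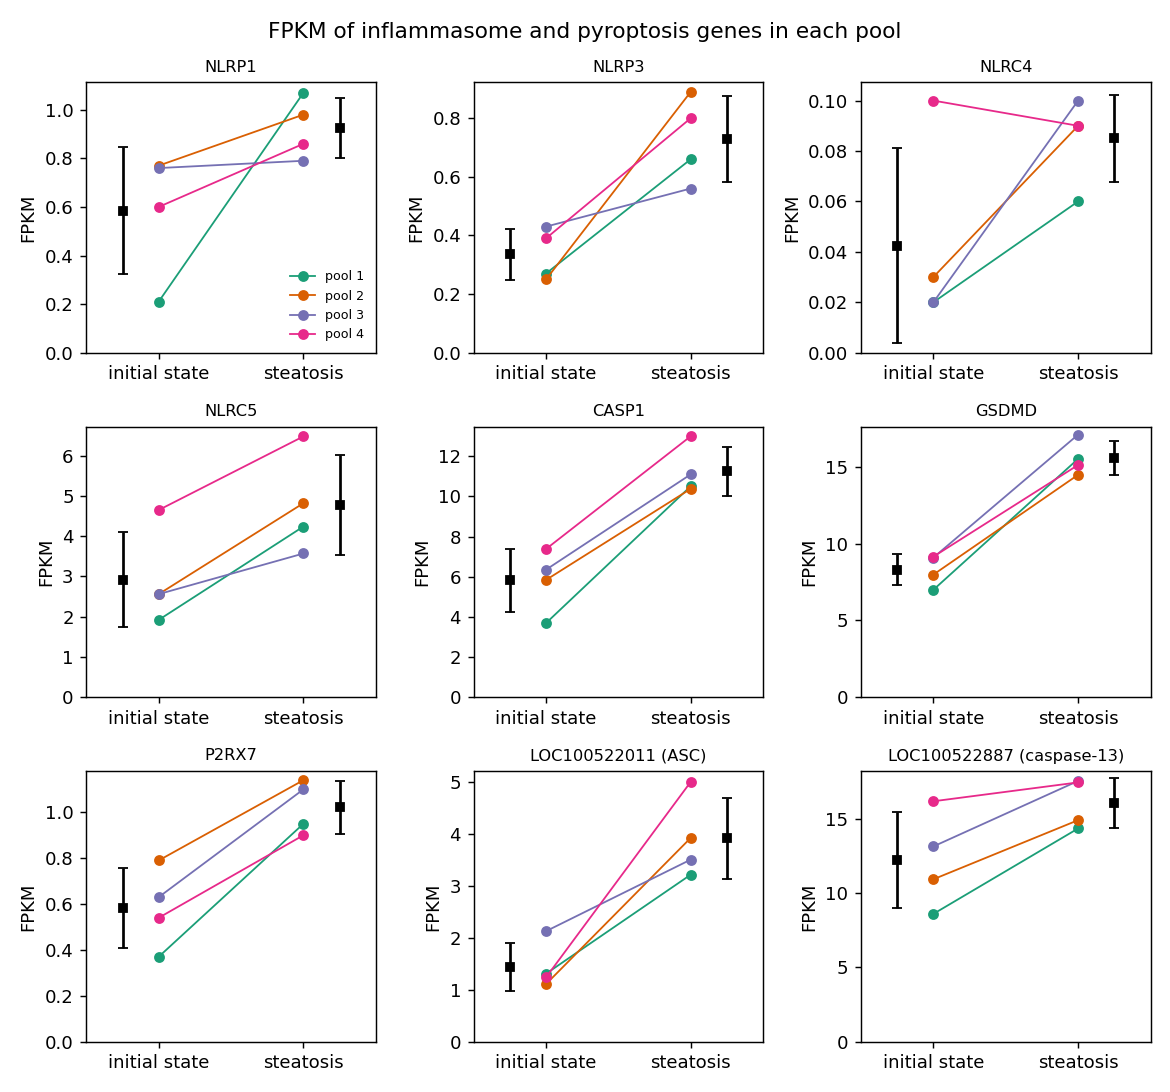
FPKM (vertical axis, from 0) of the 7 genes with a row and of the rows described as ASC and caspase-13 in the initial state and in steatosis. Each line joins the libraries of one pool number, and black squares with bars are the mean ± SD of 4 pools. GSDMD and CASP1 are the highest of the 7 and their groups do not overlap, whereas those of NLRC5 do.

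**Figure D2:**
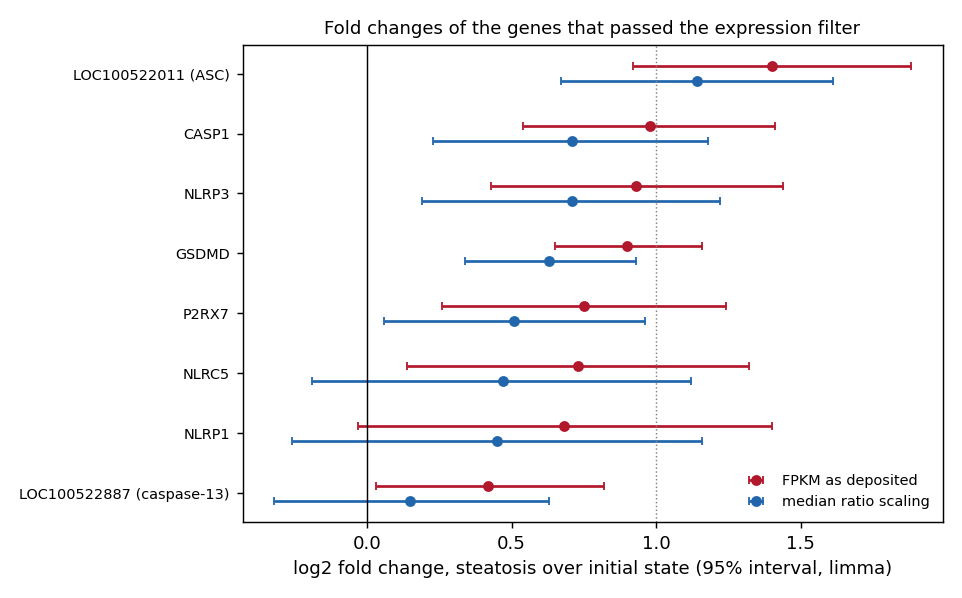
Log2 fold change of steatosis over the initial state (horizontal axis) with its 95% interval in limma, for FPKM as deposited (red) and after median ratio scaling (blue). The dotted line marks a log2 fold change of 1. CASP1 lies at 0.98 and GSDMD at 0.90 on the deposited scale, with 0.71 and 0.63 after scaling.

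The libraries themselves were first checked for tissue markers. Hepatocyte genes dominated all 8 libraries, with a summed FPKM of 62457 to 101364 over 13 rows, and their median log2 fold change was -0.02. Initial pool 1 stood apart. Its skeletal muscle markers summed to 2677 FPKM, against 0.0400 to 19.3 in the other pools, and its stomach mucosa markers to 2212 FPKM, against 0.270 to 39.8. This pool also had the lowest initial level in 5 of the 6 genes tested (83.3%), whereas it was the lowest in 27.2% of all genes tested. Without it, 0 of 6 genes were called, 3 of 6 had an adjusted p under 0.05 (23.5% of all genes) and the median log2 fold change of the 6 genes was 0.68.

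The sensor NLRP3 (gene ID 100514823, chromosome 2, 56892241 to 56977412, Sscrofa11.1) was a low transcript. Its FPKM was 0.27, 0.25, 0.43 and 0.39 in initial pools 1 to 4 and 0.66, 0.89, 0.56 and 0.80 in steatosis pools 1 to 4. Every steatosis pool lay above every initial pool. The means were 0.335 ± 0.0885 and 0.728 ± 0.146 (SD, n = 4), and the exact permutation p was 0.0286, the smallest that 4 pools against 4 allow. Its log2 fold change in limma came to 0.93 ± 0.23 (SE; adjusted p = 0.0134), and the adjusted p became 0.0552 after median ratio scaling. After upper quartile scaling it was 0.0462.

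NLRP1 (gene ID 110256098, chromosome 12, 51479968 to 51495540), a sensor that responds to proteases and other disturbances of the cytosol, had initial levels of 0.21, 0.77, 0.76 and 0.60 FPKM in pools 1 to 4, followed by 1.07, 0.98, 0.79 and 0.86 FPKM in steatosis. The groups were separated by only 0.02 FPKM, between initial pool 2 and steatosis pool 3. The means were 0.585 ± 0.262 and 0.925 ± 0.124 (SD, n = 4; exact permutation p = 0.0286). The ratio of steatosis to the initial state was 5.10 in pool 1 and 1.04 to 1.43 in the other 3 pools. Limma gave 0.68 ± 0.32 (SE; adjusted p = 0.134) on the log2 scale and 0.34 without initial pool 1, and the exact permutation p became 0.171 after upper quartile scaling and 0.257 after median ratio scaling.

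NLRC4 (gene ID 100515078, chromosome 3, 107358117 to 107389557), the partner of the bacterial receptor NAIP, was close to the lower end of the scale and did not enter the fit. It measured 0.02, 0.03, 0.02 and 0.10 FPKM in the initial state and 0.06, 0.09, 0.10 and 0.09 FPKM in steatosis, on a table written in steps of 0.01. The groups overlapped through initial pool 4, and the means of 0.0425 and 0.0850 FPKM were not separated (exact permutation p = 0.143). The annotated span of NLRC4 shares 1683 bases with SLC30A6, and whether counting used the strand is not given in the sources used here. NAIP lay between 0 and 0.06 FPKM in all libraries.

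NLRC5 (gene ID 100135667, chromosome 6, 18933179 to 19036288) was the most abundant of the NLR members. Pools 1 to 4 held 1.92, 2.56, 2.56 and 4.65 FPKM before the diet, then 4.24, 4.82, 3.57 and 6.48 FPKM in steatosis. Pool 4 was the highest of both groups, and initial pool 4 exceeded 2 of the steatosis pools. Each steatosis pool was nevertheless higher than the initial pool of the same number. The means were 2.92 ± 1.19 and 4.78 ± 1.24 (SD, n = 4; exact permutation p = 0.0857), and the estimate of limma on the log2 scale was 0.73 ± 0.26 (SE; adjusted p = 0.0627). Blocking on the pool number gave an adjusted p of 0.0129, so that 5 rather than 4 of the 6 genes lay under 0.05, against 25.7% of all genes in the same fit. Leaving out initial pool 4 gave a log2 fold change of 0.97 with an adjusted p of 0.0103 in limma. The log2 fold change was 0.56 without initial pool 1 (adjusted p = 0.132) and 0.58 without steatosis pool 4 (adjusted p = 0.162). After median ratio scaling it was 0.47 (adjusted p = 0.289), and after upper quartile scaling 0.50 (adjusted p = 0.242).

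The adaptor ASC has no row under the symbol PYCARD. A row named LOC100522011 (chromosome 3, 17305921 to 17307521) is described in the table as an apoptosis-associated speck-like protein with a CARD, which is the full name of ASC. It lies outside the rule that chose the genes, and is given here after its values were seen. It measured 1.31, 1.11, 2.13 and 1.24 FPKM in the initial state and 3.22, 3.93, 3.51 and 5.01 FPKM in steatosis. All steatosis pools were above all initial pools, and the mean rose from 1.45 ± 0.462 to 3.92 ± 0.784 FPKM (SD, n = 4; exact permutation p = 0.0286). Its limma log2 fold change, 1.40 ± 0.21 (SE; adjusted p = 0.00146), passed both limits, also after median ratio scaling (1.14) and without any library in turn (1.28 to 1.59).

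CASP1 (gene ID 397319, chromosome 9, 35188066 to 35199364), the effector protease of the complex, was the second most abundant of the genes. Initial pools 1 to 4 reached 3.69, 5.84, 6.35 and 7.38 FPKM, and the steatosis pools of the same numbers 10.5, 10.4, 11.1 and 13 FPKM. The groups did not overlap, with means of 5.82 ± 1.55 and 11.2 ± 1.21 (SD, n = 4; exact permutation p = 0.0286). In limma the log2 fold change, 0.98 ± 0.19 (SE; adjusted p = 0.00533), stayed just below the fold limit. It passed both limits without initial pool 3 (1.03) or without initial pool 4 (1.10), and was 0.78 without initial pool 1 (adjusted p = 0.00289) and 0.71 after median ratio scaling (adjusted p = 0.0421). Without initial pool 2 or any one of the steatosis pools the adjusted p was 0.0134 to 0.0190.

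No row bears the symbol CASP4. A gene described as caspase-13, LOC100522887 (chromosome 9, 35167567 to 35185791), lies beside CASP1, which begins 2275 bases after its end. It too was outside the rule and was looked at after its values were seen. Its FPKM was 8.6, 10.9, 13.1 and 16.2 in the initial state and 14.4, 14.9, 17.6 and 17.5 in steatosis. The groups overlapped through initial pool 4, the means were 12.2 ± 3.23 and 16.1 ± 1.67 (SD, n = 4; exact permutation p = 0.114), and the log2 fold change of 0.42 had an adjusted p of 0.10 in limma. Caspases of this cluster are similar in sequence, and how far reads were divided between neighbours was not tested.

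GSDMD (gene ID 100515607, chromosome 4, 995753 to 1001964), the pore-forming substrate of caspase-1, was the most abundant of the genes and the one with the smallest SE. Initial pools 1 to 4 held 7, 7.99, 9.10 and 9.16 FPKM, which compare with 15.5, 14.5, 17.1 and 15.1 FPKM in steatosis. The 4 steatosis pools were above the 4 initial pools, and the gap between the groups exceeded the SD of either. The means were 8.31 ± 1.03 and 15.6 ± 1.12 FPKM (SD, n = 4; exact permutation p = 0.0286). The difference on the log2 scale in limma was 0.90 ± 0.11 (SE; 95% interval 0.65 to 1.16; adjusted p = 0.000521). It ranged from 0.82 to 0.95 when each library was left out, and was 0.63 after median ratio scaling, with an adjusted p of 0.0101.

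P2RX7 (gene ID 497623, chromosome 14, 31415188 to 31476502), the ATP-gated channel upstream of NLRP3, measured 0.37, 0.79, 0.63 and 0.54 FPKM in the initial state and 0.95, 1.14, 1.10 and 0.90 FPKM in steatosis. The steatosis pools were all higher. The means were 0.582 ± 0.175 and 1.02 ± 0.116 (SD, n = 4; exact permutation p = 0.0286), and on the log2 scale limma estimated 0.75 ± 0.22 (SE; adjusted p = 0.0288). After median ratio scaling it was 0.51, with an adjusted p of 0.10. Without initial pool 2 or 3 the adjusted p stayed under 0.05 (0.0175 and 0.0422), and without any other single library it was 0.0504 to 0.0775. The span of P2RX7 shares 50955 bases with IFT81, whose log2 fold change was 0.37 (adjusted p = 0.0769), and reads of overlapping genes may not be fully separated. Its neighbour P2RX4, another ATP-gated channel, was called higher with a log2 fold change of 1.04 (adjusted p = 0.000453).

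Ordered by level in steatosis, GSDMD came first, followed by CASP1, NLRC5, P2RX7, NLRP1, NLRP3 and NLRC4. The steatosis pools of P2RX7 (0.90 to 1.14 FPKM) and NLRP1 (0.79 to 1.07 FPKM) overlapped, as did those of NLRP1 and NLRP3 (0.56 to 0.89 FPKM). The other neighbours in this order did not overlap in steatosis. In the initial state, GSDMD (7 to 9.16 FPKM) and CASP1 (3.69 to 7.38 FPKM) overlapped, as did CASP1 and NLRC5 (1.92 to 4.65 FPKM). P2RX7 (0.37 to 0.79 FPKM), NLRP1 (0.21 to 0.77 FPKM) and NLRP3 (0.25 to 0.43 FPKM) also overlapped there.

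The genes with the most similar profile were sought for the 3 most abundant members among 10580 genes with a mean of at least 1 FPKM, by Pearson correlation over the 8 libraries, which share the difference between groups. GSDMD was closest to MASP1 (r = 0.994), EEF1A1 (0.994) and MED21 (0.990). CASP1 was closest to NIT1 (0.995), FAM26F (0.995) and TLR3 (0.993). Among the closest to NLRC5 were UNC93B1 (0.977) and the interferon-induced chemokine CXCL10 (0.975). These are descriptions of 8 points.

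The other genes of the pathway were taken from lists by role, as the plot of these lists shows. Counts of called genes in these lists compare with 6.01% of all genes tested called higher on the deposited scale. That share was 3.33% after upper quartile and 3.12% after median ratio scaling, and 4.74% to 5.91% with single libraries left out. Among the other sensors, 0 of the 5 tested were called, with a median log2 fold change of 0.37. One of them reached an adjusted p under 0.05 in limma, namely CIITA, the activator of MHC class II genes (log2 fold change 0.90, adjusted p = 0.0116, named after its values were seen). NLRX1, a mitochondrial regulator, had a log2 fold change of 0.22 that turned to -0.05 after median ratio scaling, and MEFV, which encodes pyrin, had 0.32. Among adaptors and regulators, 2 of 16 were called higher, CARD9 (log2 fold change 1.35) and the tyrosine kinase BTK (1.33), both known from signalling in myeloid cells. The number called was 4 of 16 without initial pool 3 or steatosis pool 1 and 2 to 3 of 16 without any other pool. The median of that list was 0.39, and its most abundant genes, the chaperones HSP90AA1 and HSP90AB1, had log2 fold changes of -0.02 and 0.48. Among other caspases and genes of necroptosis, 0 of 13 were called (1 of 13 without initial pool 4), with a median of 0.30. The most abundant of these, the necroptosis kinase RIPK3, had a log2 fold change of -0.17. At the looser limit of an adjusted p under 0.05, 5 of these 13 genes were higher in limma on the deposited scale and 0 of 13 after median ratio scaling, against 26.7% and 11.7% of all genes. This count was 1 of 13 without steatosis pool 2 or 4, and 2 of 13 without initial pool 1 or steatosis pool 1 or 3. It was 3 of 13 without initial pool 3, 5 of 13 without initial pool 2 and 6 of 13 without initial pool 4. The share of all genes in these fits was 17.6% to 25.7%.

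Set against 6.01% of all genes called higher, 1 of 13 genes of membrane rupture and repair was called. This was ANXA1, a calcium-dependent phospholipid-binding protein, with 6.80 to 12.6 FPKM in the initial state and 34.8 to 40.4 FPKM in steatosis (log2 fold change 2.08). ANXA2 had a log2 fold change of 0.81, and CHMP2A, of the ESCRT-III repair machinery, 0.21, which became -0.06 after median ratio scaling. The median of this list was 0.48. Among ion channels and genes of ATP handling, 4 of 13 were called higher, namely the ATP-hydrolysing ENTPD1 (log2 fold change 1.23), the cation channel TRPV2 (1.21), the chloride channel CLIC1 (1.06) and P2RX4 (1.04). The median was 0.58, and 0 of 13 were called after median ratio scaling, against 3.12% of all genes. CLIC4 had 0.52, and TRPM2 had 0.11 on the deposited scale and -0.16 after scaling.

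The cytokines that lie downstream differed in level. IL1B was scarcely detected, with 0.06 to 0.13 FPKM in the initial state and 0.12 to 0.42 FPKM in steatosis, and did not enter the fit. IL18 had 3.5 to 4.33 FPKM in the initial state and 7.11 to 7.67 FPKM in steatosis, with groups apart and a difference of 0.86 ± 0.11 on the log2 scale of limma (SE; adjusted p = 0.000456), below the fold limit. In the interleukin 1 family list as a whole, 0 of 9 genes were called and 4 of 9 had an adjusted p under 0.05 in limma (IL33, IL18, IL18BP and IL18R1, named after their values were seen, as was IL1B), against 26.7% of all genes. The latter count was 1 of 9 after upper quartile and after median ratio scaling, against 12.7% and 11.7% of all genes. It was 2 of 9 without initial pool 1 or 4 or steatosis pool 2, 3 or 4, against 17.6% to 23.7%. Without any other single pool it stayed at 4 of 9. Its most abundant genes, HMGB1 and IL1R1, had log2 fold changes of -0.19 and -0.11. Among genes that prime the pathway through Toll-like receptors, 5 of 20 were called higher, the myeloid transcription factor SPI1 (log2 fold change 1.50), the kinase IRAK2 (1.44), the TLR4 partner LY96 (1.25), TLR2 (1.09) and TLR4 (1.02). The median was 0.64. Over all genes tested, 6.01% were called higher. The count of the list was 3 of 20 without initial pool 1 and 2 of 20 after median ratio scaling, against 5.91% and 3.12%. The abundant co-receptor CD14 had a log2 fold change of -0.19.

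**Figure D3:**
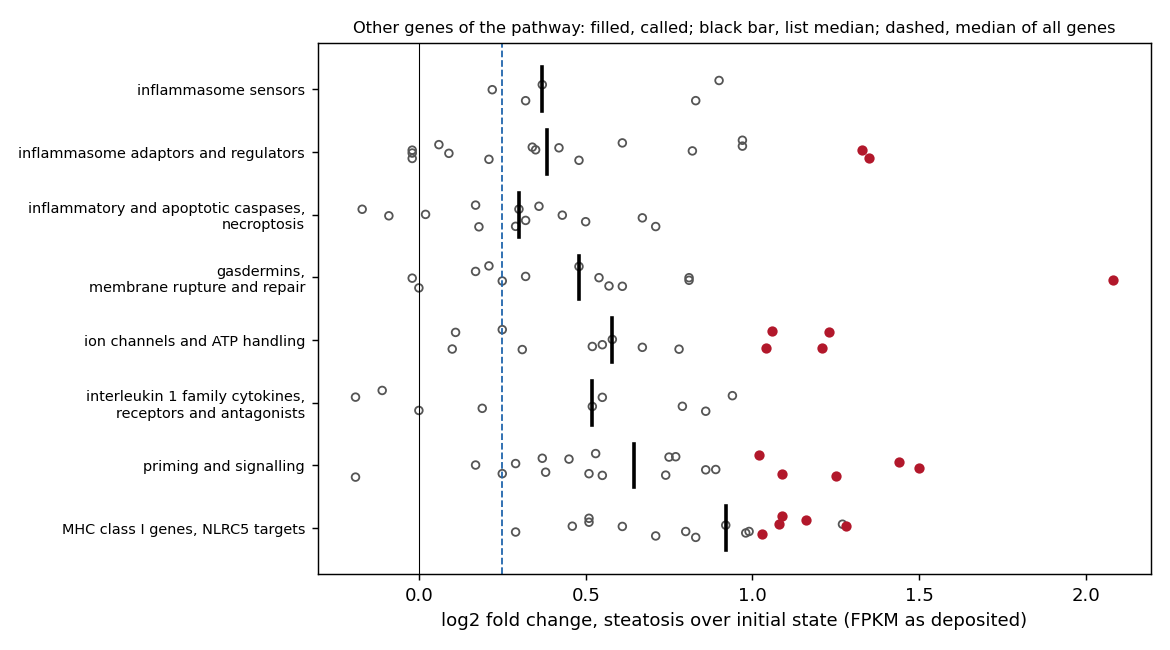
Log2 fold change of steatosis over the initial state (horizontal axis) of each tested gene in 8 lists of the pathway, without the 9 genes themselves. Filled points passed both limits, black bars are list medians and the dashed line is the median of all genes (0.25). Every called gene lies to the right of 1, and the class I list has the highest median (0.92).

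MHC class I genes and their processing machinery, among them known targets of NLRC5, had a median log2 fold change of 0.92 over 17 rows, or 0.64 after median ratio scaling. In this list 5 of 17 rows were called higher, SLA-2 (1.28), SLA-3 (1.16), SLA-1 (1.09), B2M (1.08 in its shorter row) and SLA-8 (1.03), and 14 of 17 had an adjusted p under 0.05, against 26.7% of all genes. After upper quartile and median ratio scaling 0 of 17 were called, and 5 of 17 and 4 of 17 had an adjusted p under 0.05, against 12.7% and 11.7% of all genes. Over all genes tested, 6.01% were called higher on the deposited scale, 3.33% after upper quartile and 3.12% after median ratio scaling. The number of class I rows called also depended on single libraries, where 4.74% to 5.91% of all genes were called. It was 8 of 17 without initial pool 4, 3 of 17 without initial pool 3, 5 of 17 without steatosis pool 3, 0 of 17 without steatosis pool 4 and 2 of 17 without any other single pool. The SLA genes are close copies of each other, so the division of reads between them is uncertain. The level of pool 4 was again particular, as the heat map by pool shows. It was the highest of the initial pools in 13 of 17 rows (76.5%), against 12.3% of all genes tested, and the highest of both groups in 6 of 17 (35.3%), against 4.43%. ZBP1, a nucleic acid sensor induced by interferon and chosen after its values were seen, measured 3.78, 3.90, 3.88 and 13 FPKM in initial pools 1 to 4 and 7.33, 8.00, 7.54 and 12.4 FPKM in steatosis. Initial pool 4 was thus high in both NLRC5 and ZBP1.

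**Figure D4:**
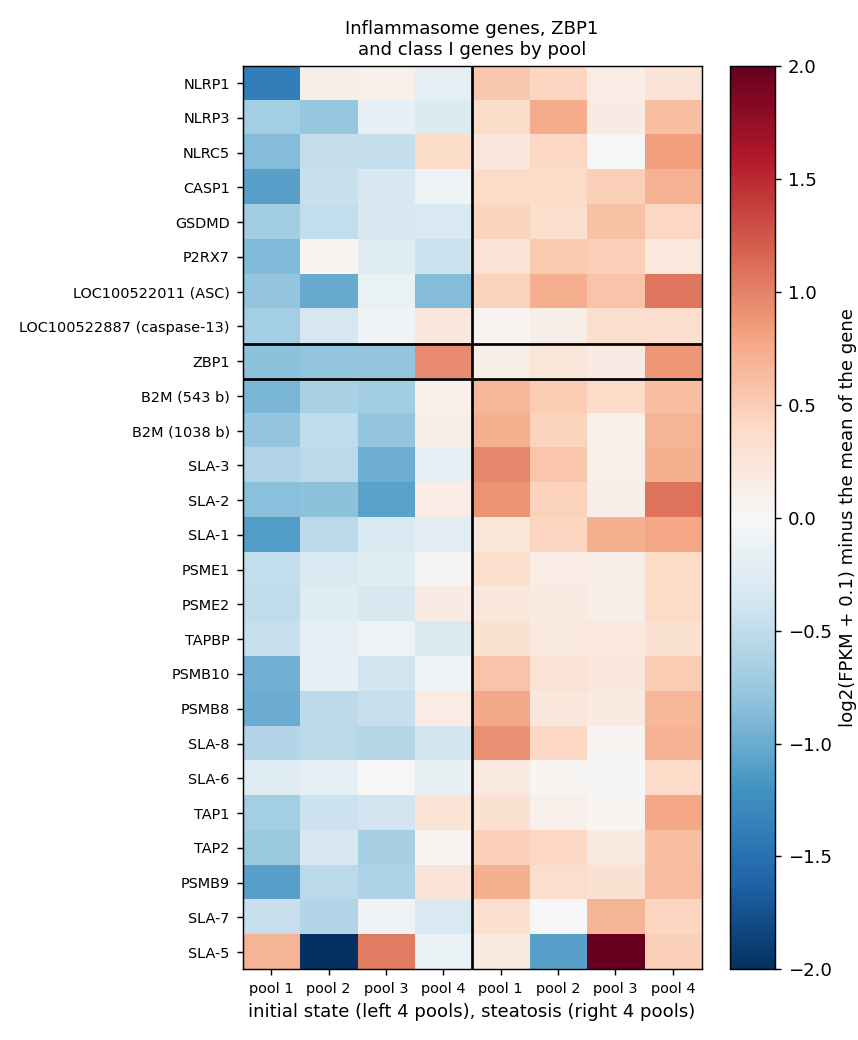
Log2(FPKM + 0.1) minus the mean of the gene over 8 libraries (colour, cut at 2 in either direction) for inflammasome genes, ZBP1 and class I genes. Columns are pools 1 to 4 of the initial state and of steatosis. Initial pool 4 is the highest of the initial pools in NLRC5, ZBP1 and 13 of 17 class I rows, in some by a small margin.

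Some markers of leukocytes, though not all, were also higher in steatosis. In bulk RNA, more cells of a type and more RNA per cell cannot be told apart. For the counts that follow, 6.01% of all genes tested were called higher and 0.334% lower. Of 5 general leukocyte markers, 2 were called higher (LAPTM5 and LCP1), and the median log2 fold change of the list was 0.96. Their summed FPKM was 68.4 to 103 in the initial state and 172 to 216 in steatosis. Of 15 macrophage markers, 3 were called higher (MARCO, CD68 and SPI1), the median was 0.62, and the sum was 1132 to 1487 and then 1569 to 1780 FPKM. Genes known from Kupffer cells differed among themselves. VSIG4 had a log2 fold change of 0.94 and C1QB of 0.64 (adjusted p = 0.00205 and 0.00271 in limma). Of the other C1q genes, C1QC had 0.44 and C1QA 0.07 (adjusted p = 0.0211 and 0.730 in limma). CD163 had 0.32, and CD5L and CLEC4F had -0.34 and -0.30 (adjusted p = 0.0889, 0.0709 and 0.515 in limma). Leaving out single libraries moved CLEC4F from -0.44 to 0.02. Neutrophil markers had a median of 0.06 over 5 genes tested, with 1 called (CSF3R), and a sum of 5.84 to 12.8 and then 9.60 to 15.4 FPKM. Their granule genes MPO (0 to 0.02 and then 0.11 to 0.26 FPKM) and ELANE (0 to 0.11 and then 0.11 to 0.35 FPKM) were near 0. T and NK cell markers had a median of 0.30, beside 0.25 for all genes tested, with 2 of 14 rows called (NKG7 and CD4). Their sum was 55.5 to 92.8 and then 103 to 123 FPKM. Mean FPKM of NKG7 went from 13.5 to 34.6 and that of CD4 from 8.20 to 18.2. In limma 11 of the 14 rows had an adjusted p of 0.05 or above. Among them were CD3E (log2 fold change 0.28), CD3G (-0.03) and CD8A (0.09). Of 4 B cell markers tested, 1 was called lower (MS4A1), and the median was -1.02, with a sum of 18 to 47.5 and then 12 to 16.3 FPKM. Among other cells, markers higher at an adjusted p under 0.05 in limma were counted, against 26.7% of all genes tested. They were 2 of 6 for cholangiocytes (ANXA4 and SPP1, median of the list 0.94) and 4 of 10 for stellate cells (median 0.82). The counts were 1 of 5 for dendritic cells (median 0.48) and 2 of 9 for endothelium (median 0.43).

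The level of each gene was therefore also expressed relative to the mean log2 level of a marker list in the same library. The genes of a list differed among themselves, so these values depend on its make-up. Log2 fold changes ran from 0.23 (CORO1A) to 1.47 (LAPTM5) in the leukocyte list and from -0.34 (CD5L) to 3.33 (MARCO) in the macrophage list. The leukocyte list itself was higher by 0.93 in steatosis. Relative to the leukocyte list, NLRP3 differed by 0.00, CASP1 by 0.05, GSDMD by -0.03, P2RX7 by -0.18, NLRC5 by -0.20 and NLRP1 by -0.25. Relative to the macrophage list, which was higher by 0.74, the differences were 0.24 for CASP1, 0.20 for NLRP3, 0.17 for GSDMD, 0.01 for P2RX7, -0.01 for NLRC5 and -0.05 for NLRP1. The groups overlapped for all 6 genes on both scales, as the plot of relative levels shows. The row described as ASC differed by 0.47 and 0.66 on these scales, with overlapping groups. The row described as caspase-13 differed by -0.51 relative to the leukocyte list, with all steatosis pools below all initial pools, and by -0.31 relative to the macrophage list, with overlapping groups. Relative to hepatocyte markers, which differed by -0.00, the difference remained 0.98 for CASP1, 0.94 for NLRP3, 0.91 for GSDMD and 0.75 for P2RX7, with groups apart, and was 0.73 for NLRC5 and 0.69 for NLRP1, with overlapping groups. The part of leukocyte content in the differences of the 6 genes was not tested beyond these values.

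**Figure D5:**
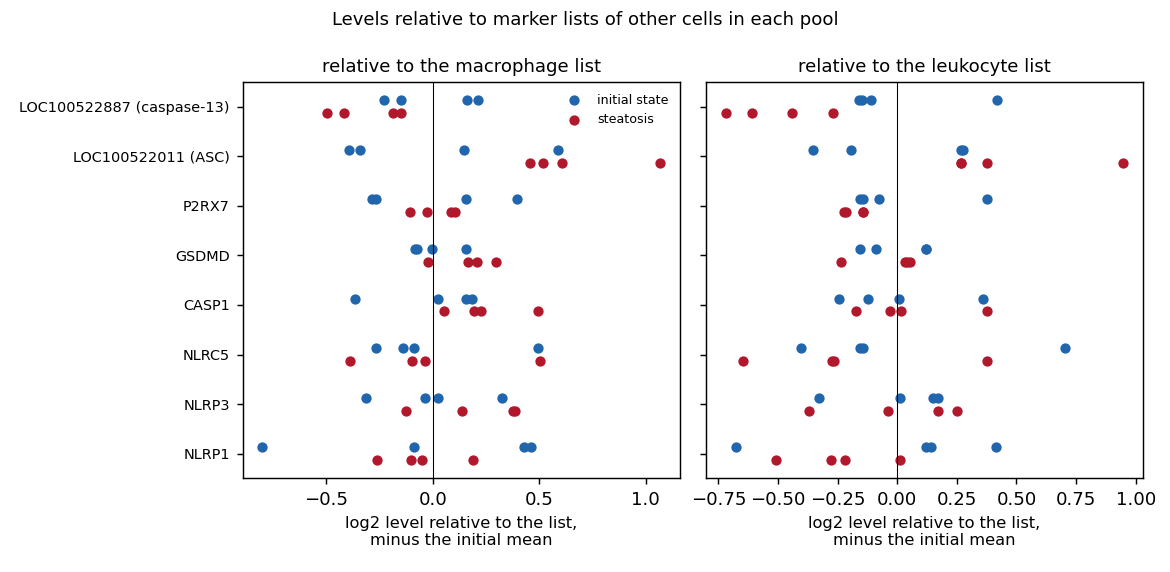
Log2 level of each gene minus the mean log2 level of the macrophage list (left) or the leukocyte list (right) in the same library, shifted so that the mean of the initial state is 0 (horizontal axis). Points are the 4 pools of the initial state (blue) and of steatosis (red). Blue and red points overlap for the 6 tested genes on both scales.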

How the data were processed

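Liver RNA of male pigs (8 libraries, each a pool of 2 animals) was selected for poly-A RNA and read as 100-base pairs on DNBseq. The authors mapped reads with HISAT2 2.0.4 to Sus scrofa 11.1 and estimated expression with Bowtie2 2.2.5 and RSEM 1.2.12 (versions per the submitters' processing notes). The deposited values are FPKM per gene, with no stated scaling between libraries. Sequencing depth, which the study gives per group, was not used. FPKM hold no read numbers, and the SD between pools serves as their precision. The deposited pairwise comparisons (fold changes and Poisson statistics) were not used, apart from their transcript length.

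The genes and all lists were chosen with earlier results of these data known. The 13175 genes that reached 0.3 FPKM in 4 or more of the 8 libraries entered a fit with limma 3.58.1 (R 4.3.3, mean-variance trend) on log2(FPKM + 0.1), with Benjamini-Hochberg adjustment. Fold changes are on this scale, which understates changes of low genes. Calls required an adjusted p below 0.01 together with a log2 fold change above 1 or below -1. For single genes, mean FPKM was also put to an exact permutation test, two-sided. Named were all members, and of each pathway list at most 6 called genes and the 2 most abundant others. A few genes that this rule names are not reported here. Of marker lists, the 3 most abundant were to be named, and called or defining markers were named instead after their values were seen. Tables were made with Python 3.11.15. Coordinates are those of RefSeq for Sscrofa11.1. In a test on simulated data over 13175 genes, 186 of 200 changed genes were found with the right sign and 3 unchanged genes were found. How often differences as small as those of the 6 members in the fit are found was not tested.

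Per the study's methods the animals of both groups are the same. The deposited comparisons match libraries by number, but whether pools of the same number hold the same animals is not said. Deviations from the group means correlated at 0.16, 0.35, 0.32 and 0.25 between libraries of the same pool number, all over 0.1, and at -0.20 to 0.03 otherwise, so the numbers were taken as pairs, and the block was an alternative. The other alternatives were the pseudocount, the filter, the trend, the scaling, each library left out and looser limits. P-values measure the spread between pools.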

Additional observations from a re-analysis of the deposited data

Results flagged for a closer look

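Among 82 groups of 4 pools (41 genes, initial state and steatosis), 6 held a pool far from the other 3. Chance gives about 1 in 20 groups, but the 6 include the values of ZBP1, a gene chosen after its values were seen. An excess over chance can therefore not be read from this count. NLRC4 was 0.1 FPKM in initial pool 4, against 0.02 to 0.03 in the others, at a level of a few steps of the table. SLA-2 was 524.41 FPKM in initial pool 4, against 225.18 to 268.29. ZBP1 was 13.04 FPKM in the same pool, against 3.78 to 3.90, and 12.44 FPKM in steatosis pool 4, against 7.33 to 8.00. ENTPD1 was 6.24 FPKM in steatosis pool 4, against 5.60 to 5.69. NLRX1 was 10.25 FPKM in steatosis pool 1, against 8.04 to 8.25. Pool 4 held 5 of the 6 values, those of ZBP1 included. The cause was not tested.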

How the results depend on the processing

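With an adjusted p under 0.05 and no fold limit, NLRP3 (0.93), CASP1 (0.98), GSDMD (0.90) and P2RX7 (0.75) were called, so 4 members, with 3519 genes higher and 300 lower over all genes. With both limits, 792 genes were higher and 44 lower on the deposited scale, 439 and 73 after upper quartile scaling, 411 and 83 after median ratio scaling, and 395 were higher with a pseudocount of 1. The difference in mean FPKM of NLRP1 was 0.222 after upper quartile and 0.202 after median ratio scaling, neither past the threshold. Under these scalings NLRX1 turned to -0.01 and -0.05, CHMP2A to -0.02 and -0.06 and TRPM2 to -0.12 and -0.16. Leaving out each library gave 0 to 1 members called (CASP1, 0.78 to 1.10), 26 to 50 genes lower, and ranges of -0.15 to 0.08 for HSP90AA1 and -0.05 to 0.22 for TRPM2. The lower count was 28 without steatosis pool 2 and 26 without steatosis pool 4. Tests without a library assume that the remaining 3 pools vary like the other group, and exact tests of 3 pools against 4 cannot go below 0.0571. With the pool number as a block, 0 members were called, with 785 genes higher and 57 lower, and the adjusted p in limma was 0.0129 for NLRC5 and 0.0299 for NLRP3. The block changed no call of a member. The causes of these shifts were not tested. With 4 pools a group and values in steps of 0.01, a difference in NLRC4 was not detected here.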

Other observations

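Some genes of the pathway that the rule for names left out are given here after their values were seen. NOD2, a sensor of bacterial peptidoglycan, was too low for the fit, with 0.07 to 0.12 FPKM in the initial state and 0.24 to 0.43 FPKM in steatosis, and its groups did not overlap (exact permutation p = 0.0286). NINJ1, which mediates rupture of the plasma membrane after pore formation, had a log2 fold change of 0.61 (adjusted p = 0.0101 in limma), which was 0.34 (adjusted p = 0.101) after median ratio scaling. GBP1, a guanylate-binding protein induced by interferon, had 12.2 to 20 FPKM in the initial state and 29.4 to 32.9 FPKM in steatosis (log2 fold change 0.97, adjusted p = 0.00164 in limma). The kinase SYK had the same log2 fold change of 0.97 (adjusted p = 0.00142 in limma). NEK7, a partner of NLRP3 in its assembly, had 6.87 to 9.83 FPKM and then 6.77 to 8.35 FPKM (log2 fold change -0.02).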
